A study of Oryza sativa with 4 samples.

Results

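The lipid-transfer-like cell wall proteins of the rice coleoptile, encoded by a cluster on chromosome 10 and by a pair of loci on chromosome 3, were described in seedlings before and after 2 days in air. They were chosen by locus ID, with their FPKM values in these data already known. Of the 10 loci named, 9 had a row in the tables, with 10 transcripts among the 3439 listed (3141 distinct locus IDs). Of these 9 loci, 7 are on chromosome 10 and 2 on chromosome 3, and no row carried LOC_Os10g40460. Why LOC_Os10g40460 has no row was not determined, and its absence does not show its level in either group. The level in control and the comparison of day 2 with control are the values the choice rested on, so they are given here as a description and without a test.

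The samples were wild-type coleoptiles of rice (Oryza sativa) strain PB1, the sheath around the first leaf of a grass seedling. The 2 control libraries were taken at 7 days after germination, at the end of growth under water. The 2 day 2 libraries were taken at 9 days, after the seedlings had been moved to air, a step that starts senescence of the organ. All 4 libraries carry submergence as the treatment label, so the move to air is known from the protocol and the group name alone. Submergence or air, age and senescence cannot be told apart between the groups, and in a whole organ neither can fewer cells of a type and less RNA per cell. The tables hold 1 FPKM (read fragments counted per kilobase of a transcript's length and relative to all mapped fragments) per transcript and group, pooled by the authors over both libraries. No replicate values, fragment numbers or errors were therefore at hand, and a difference between the groups has no replicate check here. The tables list only transcripts that changed 4-fold or more or were at 0 in control. The lowest listed day 2 FPKM was 0.035, so a transcript that fell to 0 at day 2 is not in the tables. The study reports genes expressed in control alone, and it describes a shortlist by p-value over the replicates. Whether that shortlist shaped the tables was not determined. Summed over the list, FPKM amounted to 269393 in control and to 144639 at day 2.

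Lipid transfer proteins are small secreted proteins of plants, held together by disulphide bonds between conserved cysteines, with a hydrophobic cavity that binds lipids. They share this cysteine pattern with seed storage proteins and with inhibitors of proteases and amylases, from which the name of the wider family derives. Related proteins with a proline-rich stretch before the cysteine-rich domain are placed in the cell wall, and members of the family have been linked to the cuticle, to wall extension and to defence. The coleoptile of rice elongates strongly under water, and its growth depends on the wall.

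The annotation column used here calls 8 of the 10 loci LTPL (lipid transfer protein-like) and describes each as a precursor of the protease inhibitor, seed storage and LTP family. LOC_Os03g01320 and LOC_Os10g40460 had no description in the annotation used here. The proline content of the proteins was not analysed here, so the label "cell wall protein" rests on the name of the group and not on a sequence. The label "abundant" fitted 6 of the 10 transcripts, which had a control FPKM of 1000 or more. LOC_Os10g40420 and LOC_Os10g40470 were lower than that, and both transcripts of LOC_Os03g01300 were at or near 0 in control.

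All 7 chromosome 10 loci and LOC_Os03g01320 were lower at day 2, whereas LOC_Os03g01300 was higher. Among the 10 transcripts, 8 were lower, 1 was higher and 1 was listed at 0 in control with a value at day 2. A transcript was counted as lower or higher when it was above 0 in both groups, had an FPKM of 1 or more in at least 1 group and differed 4-fold or more. By that rule 37.8% of the 3141 listed transcripts that could be counted were lower and 62.2% were higher. Another 7.62% of all 3439 had a control value of 0 and reached FPKM 1 at day 2. Transcripts at 0 at day 2 are not listed, so the share of 37.8% lower leaves out complete losses. Among the 41 listed transcripts with a control FPKM of 1000 or more, 100% were lower, so the direction of the 6 abundant transcripts is the one that every listed transcript of that level took. The median log2 ratio of day 2 to control was -4.62 over the 9 transcripts of these loci above 0 in both groups, against 2.35 over all 3166 such transcripts listed and -2.82 over the 1187 lower ones.

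**Figure D1:**
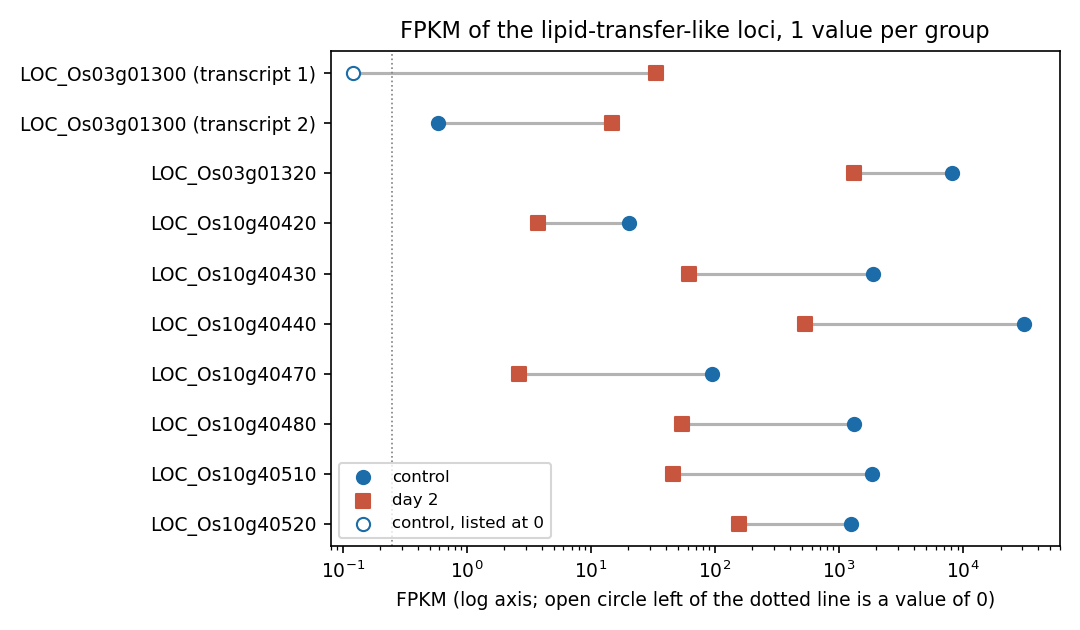
FPKM of each transcript of the lipid-transfer-like loci in control (circles) and at day 2 (squares), on a log axis, with 1 value per group and no error bars. The 7 chromosome 10 loci and LOC_Os03g01320 lie further left at day 2, and both transcripts of LOC_Os03g01300 lie further right, the first of them listed at 0 in control (open circle).

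The most abundant transcript of the whole table was that of LOC_Os10g40440, annotated as LTPL140. It lies on chromosome 10 at 21662453 to 21663219 of the IRGSP-1.0 build, counted as the files give it. It had an FPKM of 30833 in control against 532.8 at day 2, so that 1.73% of the control value was left, a log2 ratio of -5.85. It was the highest of 3439 transcripts in control and ranked 46 at day 2. In control it was 16.4 times as high as the next of the chosen chromosome 10 loci, and it was 3.79 times as high as LOC_Os03g01320. No other locus of the group was near it, and at day 2 it was still the highest of the cluster.

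A second tier of the cluster had control values between 1255 and 1876. LOC_Os10g40430 (LTPL139; chromosome 10, 21658191 to 21658818) went from 1876 to 61.9 FPKM, with a log2 ratio of -4.92. LOC_Os10g40510 (LTPL144; chromosome 10, 21690331 to 21691088) went from 1842 to 46.0 FPKM, with a log2 ratio of -5.32. Both started at nearly the same level, with a ratio of 1.02 between them in control, and with no replicates their order cannot be told. LOC_Os10g40480 (LTPL143; chromosome 10, 21674706 to 21675375) went from 1330 to 54.1 FPKM, with a log2 ratio of -4.62. LOC_Os10g40520 (LTPL145; chromosome 10, 21693875 to 21694502) went from 1255 to 156.8 FPKM, with a log2 ratio of -3.00. These last 2 loci differed by a ratio of 1.06 in control, which is likewise too close to order, yet LOC_Os10g40520 kept 12.5% of its control value and LOC_Os10g40480 kept 4.07%. At day 2 LOC_Os10g40520 had the highest value of this tier.

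The remaining chromosome 10 loci were far less abundant. LOC_Os10g40470 (LTPL142; chromosome 10, 21670509 to 21671244) went from 94.9 to 2.64 FPKM, with a log2 ratio of -5.17. LOC_Os10g40420 (LTPL138; chromosome 10, 21655488 to 21656252) was the lowest of the cluster in control, at FPKM 20.2, and had 3.74 at day 2, a log2 ratio of -2.44. Although LOC_Os10g40470 started higher, its listed day 2 value was below that of LOC_Os10g40420. Both day 2 values are low and without replicates, so their order cannot be told. The listed log2 ratios of this pair differed, with no error at hand for either. Over the 7 loci, the highest control value was 1524 times the lowest, and the highest day 2 value 202 times the lowest.

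On chromosome 3 the loci moved apart. LOC_Os03g01320 (chromosome 3, 220395 to 220853) had the third highest control value of the whole table, FPKM 8145, and 1326 at day 2, a log2 ratio of -2.62. It kept 16.3% of its control value, ranked 14 of 3439 at day 2 and was then 2.49 times as high as LOC_Os10g40440, the reverse of their order in control. LOC_Os03g01300 (LTPL114) is listed with 2 transcripts of separate gene models, 1962 bases apart. The transcript at 208339 to 209118 was listed at 0 in control and had an FPKM of 33.6 at day 2, so no fold is given. The transcript at 211081 to 211817 went from 0.581 to 14.8 FPKM, with a log2 ratio of 4.67. Whether these models are 1 gene or 2 was not determined, but neither overlaps the other and both were higher at day 2. The second of them ends 8577 bases before LOC_Os03g01320 starts. Their gene model numbers in the authors' assembly, XLOC_017378 and XLOC_017380, are not consecutive, so a gene that is not listed may lie between them. The chromosome 3 loci had opposite directions, whereas every chosen locus on chromosome 10 with a row was lower.

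The cluster on chromosome 10 covered 39015 bases from the start of LOC_Os10g40420 to the end of LOC_Os10g40520. It held 7 listed transcripts, all of them from the loci described here. Gaps between neighbours ran from 1938 to 14955 bases, and the gene model numbers of the authors' assembly ran on from one locus to the next without a break. The loci followed each other in the same order in the RefSeq gene table (assembly ASM3414082v1), in which 8 of the 10 loci were matched by gene ID. Of the 10 RefSeq genes from LOC_Os10g40420 to LOC_Os10g40530, 8 were matched to a listed locus and 2 were not. Level did not follow position, since the highest locus lay between LOC_Os10g40430 and the low LOC_Os10g40470. All 10 transcripts of the group had a genomic span under 800 bases, from 459 to 780, which was the case for 11.5% of all listed transcripts.

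The next listed locus beyond the cluster was LOC_Os10g40530 (LTPL146; chromosome 10, 21697076 to 21697778), which is not among the loci chosen but carries the same family description. It starts 2573 bases after LOC_Os10g40520. It went from 2708 to 121.0 FPKM, with a log2 ratio of -4.48, and in control it was above every chosen chromosome 10 locus except LOC_Os10g40440. Its value at day 2 was within the range of the cluster. Near-identical copies of a gene can share reads, and how the authors' mapping divided such reads among these neighbours was not determined.

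**Figure D2:**
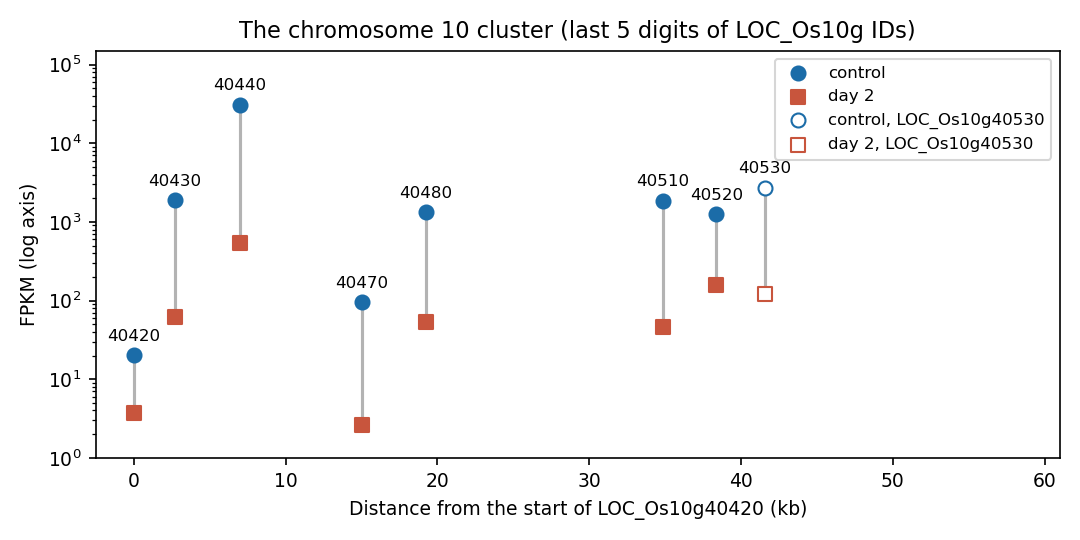
FPKM in control (circles) and at day 2 (squares) of the listed LTP family loci of the chromosome 10 cluster, on a log axis, against their distance in kb from the start of LOC_Os10g40420. LOC_Os10g40530, which is not among the chosen loci, is drawn open. Every locus is lower at day 2, and LOC_Os10g40440 is the highest in both groups.

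The loci together held 16.9% of the summed FPKM of all listed transcripts in control and 1.54% at day 2. Their own sum was FPKM 45396 in control and 2233 at day 2, a ratio of 20.3. The remainder of the table, which pools higher and lower transcripts, had a ratio of 1.57. Their fall made up 18.2% of the summed fall of all 1187 lower transcripts. The share in control rested on a single locus, being 5.41% without LOC_Os10g40440. These shares are of a list selected for change, not of all transcripts of the coleoptile.

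The make-up of the group also differed between the groups of libraries. LOC_Os10g40440 gave 67.9% of its summed FPKM in control and 23.9% at day 2. LOC_Os03g01320 gave 17.9% in control and 59.4% at day 2. The chromosome 10 loci as a whole went from 82.1% of it to 38.4%.

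**Figure D3:**
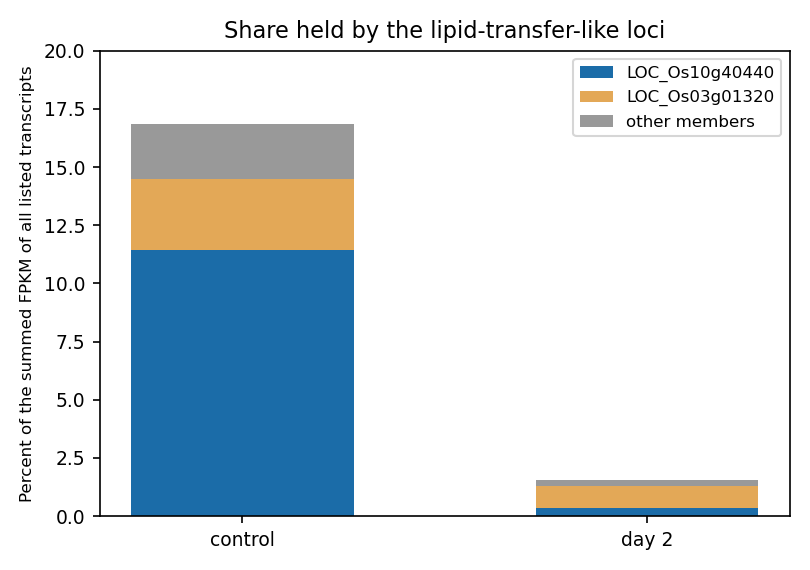
Percent of the summed FPKM of all listed transcripts held by LOC_Os10g40440, LOC_Os03g01320 and the other loci of the group, in control and at day 2. The stacked bars reach 16.9% in control and 1.54% at day 2, and LOC_Os10g40440 is the largest part of the first and LOC_Os03g01320 of the second.

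The depth of the libraries was not part of the tables, and the scaling of the deposited FPKM sets every ratio. With all day 2 values multiplied by 1.86, the ratio of the summed FPKM of both tables, which shifts every log2 ratio by 0.90, 6 instead of 8 transcripts of the group were lower by 4-fold or more. The pair that dropped below 4-fold, LOC_Os10g40420 and LOC_Os03g01320, then had log2 ratios of -1.54 and -1.72.

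Other loci of the LTP family went both ways. The annotation used here described 2244 of the 3439 listed transcripts and named 25 further listed loci of the family, with 26 transcripts. Of these, 5 were lower, 11 were higher and 10 were listed at 0 in control, beside 37.8% lower and 62.2% higher among the listed transcripts that could be counted and 7.62% of all at 0 in control. The split of 11 higher to 5 lower is near that background and is no result about the family. Outside the chromosome 10 cluster region, 3 were lower and 11 higher. The 10 at 0 in control were a larger part of the 26 than 7.62%, a difference that was not tested. The median log2 ratio of the further loci was 3.38 over the 16 transcripts above 0 in both groups. All 5 lower ones had a control FPKM of 74.2 or more, and all 11 higher ones had a control FPKM of 56.4 or less. Because only changes of 4-fold or more are listed, the level in control and the direction are not independent in such a table.

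The 5 lower loci of the wider family included LOC_Os10g40530 above. LOC_Os06g43600 (LTPL129; chromosome 6, 26227108 to 26228735) went from 1002 to 154.9 FPKM, with a log2 ratio of -2.69. LOC_Os08g42040 (LTPL80; chromosome 8, 26554158 to 26557021) went from 865.9 to 84.3 FPKM, with a log2 ratio of -3.36. The other two were named after their values were seen. LOC_Os10g40614 (LTPL147; chromosome 10, 21786114 to 21787034), which starts 91.6 kb beyond LOC_Os10g40520, went from 674.8 to 42.0 FPKM, with a log2 ratio of -4.01. LOC_Os11g02330 (LTPL22; chromosome 11, 680033 to 680884) went from 74.2 to 11.3 FPKM, with a log2 ratio of -2.72. All these falls were smaller than those of LOC_Os10g40440, LOC_Os10g40510, LOC_Os10g40470 and LOC_Os10g40430. The ranges overlapped, however. All 5 fell more than LOC_Os03g01320 (log2 ratio -2.62) and LOC_Os10g40420 (-2.44), and LOC_Os10g40530 and LOC_Os10g40614 also fell more than LOC_Os10g40520 (-3.00).

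At day 2 the highest listed loci of the wider family were others. LOC_Os01g60740 (LTPL16; chromosome 1, 35130012 to 35130913) went from 56.4 to 525.9 FPKM, with a log2 ratio of 3.22, and so reached about the day 2 level of LOC_Os10g40440. LOC_Os07g07930 (LTPL78; chromosome 7, 3980210 to 3981196) went from 10.02 to 286.9 FPKM, with a log2 ratio of 4.84. LOC_Os02g44310 (LTPL112; chromosome 2, 26804987 to 26805820) went from 6.24 to 229.7 FPKM, with a log2 ratio of 5.20. Summed over the 25 further loci, FPKM came to 5441 in control and to 2241 at day 2. That fall rested on LOC_Os10g40530 and LOC_Os10g40614. Without them, the 23 loci outside the chromosome 10 cluster region summed to 2057 in control and 2078 at day 2. The summed day 2 FPKM of the chosen loci, 2233, was close to the 2241 of all 25, whereas in control the chosen loci held 45396.

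The cell wall proteins of the study's MapMan categories, mostly fasciclin-like arabinogalactan proteins and extensin-type proteins, were set beside them. The study placed these loci in the category from the changed transcripts of the same libraries, so they are no independent list. Of 16 transcripts from 15 loci, 10 were lower and 4 were higher, and 2 were listed at 0 in control, of which 1 reached FPKM 1 at day 2. The shares over the table were again 37.8% lower, 62.2% higher and 7.62% at 0 in control. Their median log2 ratio was -2.55 over 14 transcripts. The highest in control were 3 loci described as fasciclin proteins, a class of wall and membrane glycoproteins linked to adhesion. LOC_Os05g48890 (chromosome 5, 28047384 to 28048140) went from FPKM 1117 to 40.4, LOC_Os01g47780 (chromosome 1, 27340910 to 27341950) from 471.0 to 79.6, and LOC_Os03g03600 (chromosome 3, 1579381 to 1580910) from 308.7 to 39.9. Their summed FPKM over all 15 loci was 2401 in control, far below that of the lipid-transfer-like loci.

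**Figure D4:**
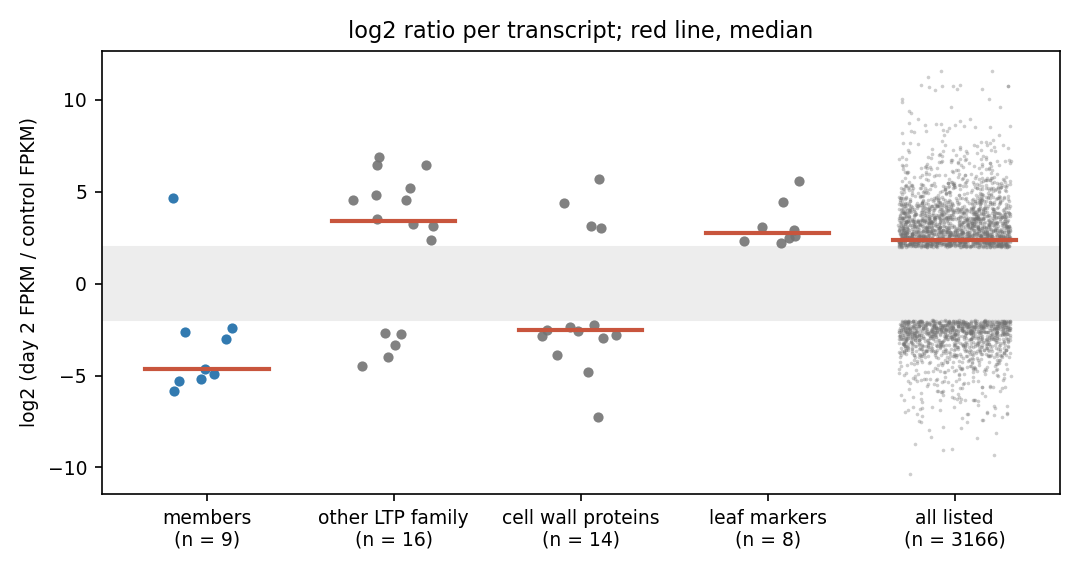
The log2 ratio of day 2 to control FPKM of every transcript above 0 in both groups, for the lipid-transfer-like loci (members), the other LTP family loci, the cell wall proteins, the leaf markers and all listed transcripts, with the median as a red line. The grey band, from -2 to 2, is empty because the tables list only changes of 4-fold or more. The medians are -4.62, 3.38, -2.55, 2.74 and 2.35.

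The listed loci whose pattern was most like that of LOC_Os10g40440 were taken by distance in log2 control and log2 day 2 FPKM, over the 2 groups. The nearest was LOC_Os02g37490 (chromosome 2, 22626273 to 22627180), described as a glycine-rich cell wall structural protein, at a distance of 0.94 log2 units. It had the second highest control value of the table, and went from 17058 to 698.1 FPKM, with a log2 ratio of -4.61. The next were LOC_Os06g22960, described as an aquaporin, and LOC_Os02g38920, described as a glyceraldehyde-3-phosphate dehydrogenase, at distances of 2.45 and 2.53. With 2 values per transcript, such likeness is a matter of level and ratio alone.

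The coleoptile encloses the green first leaf, so markers of leaf tissue were looked up. The listed loci described as chlorophyll a/b binding proteins or as the small chain of ribulose bisphosphate carboxylase, which fixes carbon dioxide in the chloroplast, numbered 7, with 8 transcripts. The annotation used here described only 2244 of the 3439 listed transcripts, so further such loci may have been missed. All 8 were higher at day 2, in a table where 62.2% of the transcripts that could be counted were higher and none changed less than 4-fold, from a range of FPKM 1.87 to 89.3 in control to a range of 23.7 to 438.3. Summed, they had an FPKM of 179.4 in control and of 1348 at day 2. The study, in contrast, found ribulose bisphosphate carboxylase lower in senescing coleoptiles by quantitative PCR. It names a small chain precursor among the genes that declined and reports that PCR and sequencing patterns matched. It also reports several photosynthesis genes as upregulated in senescing coleoptiles. Which locus the PCR measured was not determined here, so whether it is among these 8 transcripts cannot be said. The part of leaf tissue, or of greening of the coleoptile, in the change of the lipid-transfer-like loci was not tested.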

How the data were processed

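Reads were quality-filtered by the authors (NGS QC Toolkit), aligned to IRGSP-1.0 with TopHat and assembled into transcripts (Cufflinks, Cuffmerge), which Cuffdiff compared. The authors deposited FPKM, 1 value per transcript and group, for a list of changed transcripts. Their scaling option is not given in the sources used here. The tables hold no depth or fragment numbers, and the read totals that the study states per library were not used.

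Both tables were joined by transcript, and log2 ratios (day 2 over control) were taken with no pseudocount (Python 3.11.15, pandas 2.3.3, numpy 2.4.6). Without values per library, the planned limma test was not run. Chromosome numbers were read from the locus IDs on each sequence. The code for the calls was run on control values changed by known folds without noise. That checks the arithmetic only and gives no error rate for the calls.

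The chosen loci and lists were fixed with earlier results of these data known. Every chosen locus is named. Outside them, the rule took LTP family loci within 50 kb of the cluster, the 3 highest LTP family loci in each group, the 3 highest cell wall protein loci in control and the 3 loci nearest to LOC_Os10g40440. Family names come from the study's annotation, of which a shortened copy was used, so the LTP family list is a part. Protein and promoter sequences were not analysed here. Alternatives were pseudocounts, filters on FPKM, scaling of day 2, sums per locus and other sets of loci.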

Additional observations from a re-analysis of the deposited data

How the results depend on the processing

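No paired analysis was possible because each table pools both libraries of its group, and no library could be left out either. Of 43 alternative values for 6 results, 12 moved. Moved means that a median shifted by over 0.1, a share by over 1 percentage point or a count by over 1.5 times. None changed direction, but a count or a share cannot, and no pseudocount or scaling by 0.90 in log2 can reverse a 4-fold change. The lack of reversals is therefore no check of the results. With day 2 multiplied by the ratio of summed FPKM, 3 instead of 5 further LTP family loci and 4 instead of 10 cell wall protein transcripts were lower 4-fold or more. The median log2 ratio of the chosen loci, -4.62, was -3.72 under that scaling and -5.52 with day 2 divided by the ratio. It was -3.81 after adding a pseudocount of 0.1, and -3.79 after adding 1, which let in the transcript at 0 in control. With FPKM 1 required in both groups it was -4.77, and it was -4.92 for chromosome 10 alone and -3.81 without LOC_Os10g40440. The share of summed control FPKM, 16.9%, was 13.8% for chromosome 10 alone, 5.41% without LOC_Os10g40440 and 17.9% with LOC_Os10g40530, a set added after the data had been seen. These shifts follow from the scaling or from the set of transcripts. Among 36 alternative log2 ratios of these transcripts taken singly, 22 moved by over 0.1 and 2 came under 4-fold, both with day 2 multiplied. Without fragment numbers, no error can be given for low values such as those of LOC_Os03g01300 in control or of LOC_Os10g40420 and LOC_Os10g40470 at day 2.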
